A study of Mus musculus with 20 samples.

Results

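The 46 genes described here encode complement components, coagulation factors and the fibrin-dissolving system, with their receptors and regulators. They were found by the gene name of each array probe, with older symbols allowed, and 69 of the 41174 non-control probes on the array belonged to them. From general knowledge of where each protein is made, 30 members were taken as hepatocyte-made and 9 as macrophage-made (C1qa, C1qb, C1qc, Cfp, C3ar1, C5ar1, F13a1, Plau and Plaur). The other 7 members have other or mixed sources (Cfd, F3, F8, Plat, Thbd, Tfpi and F2r). Of the 46 members, 45 passed the filter on dim probes, against 17552 of 27573 genes on the array. C5ar1, a receptor for a complement activation fragment, did not pass: it was well above background on 3 of 5 arrays of knockout mice on Western diet and on none in the other groups.

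Liver RNA came from 20 male mice aged 28 weeks on a mixed Sv129/C57Bl6J background, in 4 groups of 5. Wild-type mice and LXR alpha/beta double knockout mice, which lack both liver X receptors (nuclear receptors that bind oxidised cholesterol), were fed normal chow or a cocoa butter Western diet for 7 weeks. The deletion was not restricted to hepatocytes by anything the labels state, so macrophages and other liver cells of the knockout mice were taken to lack the receptors too. The design implies a genotype difference on each diet, a diet difference in each genotype, and the difference between the diet differences.

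Most soluble complement and clotting proteins are made by hepatocytes and secreted into plasma, where they act as chains of proteases. Complement is started by antibody-bound C1q or by lectins that bind microbial sugars, passes through C3, and ends in a pore built from the terminal components. Coagulation ends in thrombin, which turns fibrinogen into fibrin; plasmin, made from plasminogen by the activators tPA and uPA, dissolves the clot. Macrophages make a smaller set, among them C1q, properdin, the A chain of factor XIII, and uPA with its receptor.

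Values are log2 processed signals from which the 75th percentile of that array was subtracted, and can be compared for 1 gene between mice but not between genes. The 75th percentile ran from 170.3 to 435.1 intensity units and was higher in knockout mice on Western diet (339.7 to 435.1) than in wild-type mice on that diet (261.1 to 330.8). The share of probes well above background was 53.6% to 67.1%. The probes of the deleted genes were low in knockout mice (Nr1h3 differed by -9.05 ± 0.29 (SE) on normal diet and Nr1h2 by -5.39 ± 0.31). The hepatocyte markers Alb and Ttr were well above background on all 20 arrays, Alb at saturation. In whole liver, fewer cells of a type and less RNA per cell cannot be told apart. Below, "rose" and "fell" mean an adjusted p under 0.05 from limma over all genes, differences are given ± SE, group levels ± SD, and n is 5 mice per group unless stated.

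Promoters are shown for members that differed strongly in opposite directions: terminal complement (C8b, C9) and fibrinogen (Fga) in one direction, and the macrophage genes C1qc and Plaur in the other. Each is the 250 bases before the RefSeq start in GRCm38.p6, read 5′ to 3′ on the gene's strand, with motif matches in capitals. C8b lay at chr4:104766067-104766316, plus strand, C9 at chr15:6445096-6445345, plus strand and Fga at chr3:83025903-83026152, plus strand. C1qc lay at chr4:136892915-136893164, minus strand, and Plaur at chr7:24462233-24462482, plus strand.
C8b: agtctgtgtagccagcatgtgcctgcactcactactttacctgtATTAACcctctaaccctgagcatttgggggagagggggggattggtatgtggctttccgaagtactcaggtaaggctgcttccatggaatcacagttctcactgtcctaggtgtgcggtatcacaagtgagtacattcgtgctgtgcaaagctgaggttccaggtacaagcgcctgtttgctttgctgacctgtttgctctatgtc
C9: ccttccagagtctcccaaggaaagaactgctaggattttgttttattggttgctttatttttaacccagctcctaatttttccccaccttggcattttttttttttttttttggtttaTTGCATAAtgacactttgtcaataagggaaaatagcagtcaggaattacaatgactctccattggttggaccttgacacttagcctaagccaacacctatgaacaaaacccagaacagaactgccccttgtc
Fga: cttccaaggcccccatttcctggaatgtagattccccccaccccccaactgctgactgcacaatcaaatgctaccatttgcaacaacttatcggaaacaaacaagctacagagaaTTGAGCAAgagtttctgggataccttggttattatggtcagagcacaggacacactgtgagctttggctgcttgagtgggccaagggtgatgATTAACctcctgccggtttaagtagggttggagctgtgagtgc
C1qc: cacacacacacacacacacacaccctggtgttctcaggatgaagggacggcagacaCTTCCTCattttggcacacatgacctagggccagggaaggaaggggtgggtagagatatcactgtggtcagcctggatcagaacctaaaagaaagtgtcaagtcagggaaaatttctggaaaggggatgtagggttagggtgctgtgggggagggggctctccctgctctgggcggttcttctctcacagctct
Plaur: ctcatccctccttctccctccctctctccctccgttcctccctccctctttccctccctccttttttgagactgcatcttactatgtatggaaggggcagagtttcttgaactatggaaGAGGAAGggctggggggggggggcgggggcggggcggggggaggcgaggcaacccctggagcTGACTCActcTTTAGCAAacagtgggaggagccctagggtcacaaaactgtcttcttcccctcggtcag
The capitals in C8b mark an HNF1 half-site (GTTAAT, on the other strand), 206 to 201 bases before the start. In C9 they mark a C/EBP element (TTGCNNAA), 132 to 125 bases before the start. Fga held both, the C/EBP element at 135 to 128 and the HNF1 half-site at 43 to 38 bases before the start. C1qc held a PU.1 element (GAGGAAG) at 194 to 188 bases, and Plaur held a PU.1 element (131 to 125), an AP-1 element (TGANTCA, 69 to 63) and a C/EBP element (59 to 52).

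The table of promoters held 34 of the 46 members, 22 hepatocyte-made, 7 macrophage-made and 5 others. HNF1 and C/EBP factors are activators of hepatocyte genes, and PU.1 is an activator of macrophage genes. On either strand, the HNF1 half-site was in 5 of 22 hepatocyte-made members (C8a, C8b, C4bp, Fga and F13b) and in 7.49% of all 27025 genes. The C/EBP element was in 6 of 22 (C3, C9, F9, F11, Klkb1 and Fga) against 10.8% of all genes. The PU.1 element was in 0 of 22 hepatocyte-made and 3 of 7 macrophage-made members (C1qc, F13a1 and Plaur), against 12% of all genes. Outside these classes 1 match each was seen for HNF1 (Cfp), C/EBP (Plaur) and PU.1 (Tfpi). The AP-1 element was in 2 of 22 hepatocyte-made (C8g and F2), 2 of 7 macrophage-made (C3ar1 and Plaur) and 2 of 5 other members (F3 and F2r), against 7.82% of all genes. No member of the 34 held the LXR element of direct AGGTCA repeats with 4 bases between them (0.0148% of all genes), the HNF4 element CAAAGTCCA (0.451%) or the NF-kB element (0.414%). Of the motifs found, none overlapped another in the promoters shown. These are matches of letters in a short window and do not show binding.

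The genotype difference on Western diet asked what the loss of LXR does under that diet. In knockout livers hepatocyte-made members were lower and macrophage-made members higher than in wild-type livers. Of 45 members, 10 rose and 26 fell, against 25% of all genes higher and 32.7% lower. By source, 24 of 30 hepatocyte-made members fell and 1 (Pros1) rose, with a median difference of -0.65, while 7 of 8 measured macrophage-made members rose and 0 fell (median 2.79). Of these 7, Plau and C3ar1 passed the filter on dim probes only through knockout mice on Western diet, where they were high, so their place among the rises was set by that choice; the others were C1qa, C1qb, C1qc, F13a1 and Plaur. Over all 17545 genes the median was -0.16. The falls include C3 and F2, which were saturated on every array and have no measurable size. Of the 7 members of other source, Plat and Thbd rose and F8 and F2r fell.

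On normal diet the same genotype difference was small: 4 members rose (C1qb, Plaur, Pros1 and Thbd) and 3 fell (C9, Fga and F2r), against 11.3% of all genes higher and 8.39% lower. The hepatocyte-made median was -0.16 and the macrophage-made median was 0.75, beside -0.06 over all genes. C9 and Fga, which fell on normal diet, fell on Western diet too. F12 (-0.37 ± 0.13, adjusted p = 0.0503) and F13a1 (1.34 ± 0.48, adjusted p = 0.056) just missed the threshold.

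In wild-type mice few members passed the test of Western against normal diet. C4bp and Kng1 fell and 0 members rose, against 2.71% of all genes lower and 3.25% higher. The C4bp probe was saturated on 4 of 20 arrays and the Kng1 probe on 3, and both calls were lost with quantile normalization, median scaling, normexp or an unsaturated probe, in the series matrix, and without wild-type mouse 2 or 4 on normal diet. Among members saturated on no array 0 fell. At an unadjusted p under 0.05 in limma, 3 further members were higher (C1qc, Cfp and Pros1) and 5 lower (C1s, C8g, F11, F5 and Plg), with adjusted p of 0.0535 to 0.246. The share of all genes at that unadjusted threshold was not counted, so these counts cannot be set against it. In knockout mice the same diet had a large difference: 11 members rose and 29 fell, against 22.6% of all genes higher and 27.8% lower. There 27 of 30 hepatocyte-made members fell (median -0.82) and 8 of 8 macrophage-made members rose (median 2.40), Plau and C3ar1 again among them through the filter. The 29 falls include Cfd, which passed the filter only through knockout mice on normal diet, where it was high, so its place was set by that choice. The genotype comparison on Western diet and the diet comparison in knockout mice share the 5 knockout mice on Western diet, so their values are not independent.

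Whether the diet difference itself depended on genotype was tested directly. This difference of differences was positive for 7 members and negative for 14, against 12.9% of all genes positive and 14.7% negative. The 7 were C1qb, C3ar1, F13a1, Plat, Plau, Plaur and Thbd; the 14 were C6, C8b, C8g, C9, F10, F13b, F8, F9, Klkb1, Masp2, Mbl1, Mbl2, Plg and Proc. Members outside these lists could not be shown to respond differently to diet in the 2 genotypes.

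**Figure D1:**
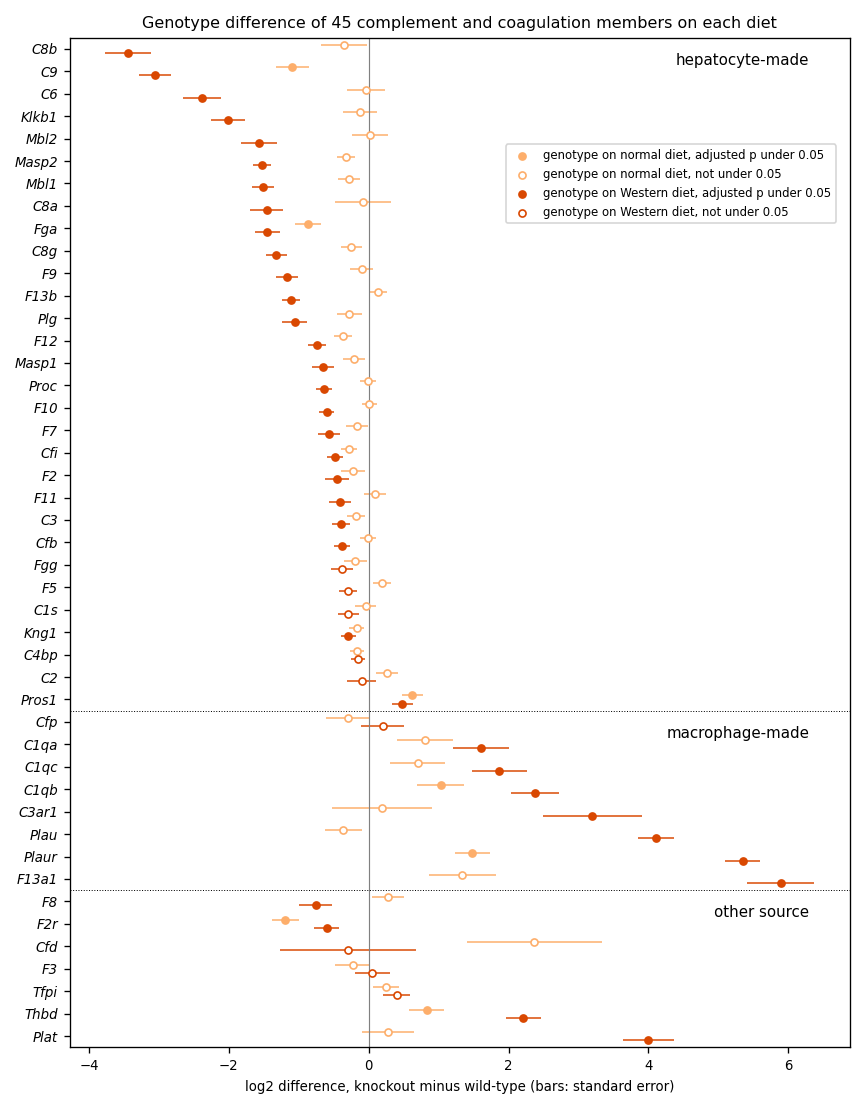
Log2 difference between knockout and wild-type mice (horizontal axis, ± SE, 5 mice per group except for missing values of C8a, C2, Mbl2, Fga and F2r) for the 45 members that passed the filter, by source class and sorted by the Western diet difference. Filled points have an adjusted p under 0.05. On Western diet hepatocyte-made members run from -3.44 (C8b) to 0.48 (Pros1) and macrophage-made members from 0.20 (Cfp) to 5.89 (F13a1).

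Terminal complement, which builds the membrane pore, held the 3 largest falls of the genotype comparison on Western diet, in C8b, C9 and C6. All 5 members of this role (C6, C8a, C8b, C8g and C9) fell in knockout mice on Western diet, against 32.7% of all genes. Their median was -2.38. C7, a terminal component that is not among the 46 and is named here after its values were seen, went the other way: it was well above background on 1 of 5 wild-type and 5 of 5 knockout arrays on Western diet, at mean levels of -5.47 and -4.23.

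C8b encodes the beta chain of C8, the component that anchors the pore in the membrane, and its probe lies on chromosome 4 at 104302326 to 104302385 of mm8. Its levels in wild-type mice 1 to 5 were 5.13, 5.21, 4.68, 5.29 and 5.22 on chow and, with Western diet, 4.79, 4.75, 4.42, 5.05 and 4.49. Knockout mice 1 to 5 had 3.83, 4.40, 5.07, 5.02 and 5.45 on chow and, with Western diet, 1.84, 0.65, 0.30, 2.33 and 1.18. All 5 knockout mice on Western diet lay below all other mice, and mice 1 and 4 were the highest of them. The genotype difference on Western diet was -3.44 ± 0.33 (10.9-fold lower, adjusted p = 9.52e-08), and -4.45 to -2.09 within the 4 slides that held both groups. On normal diet it was -0.35 ± 0.33 (adjusted p = 0.496), with overlapping groups.

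C9 polymerises to form the wall of the pore (probe on chromosome 15 at 6430342 to 6430401). Wild-type mice had C9 levels of 4.85, 4.71, 4.14, 4.47 and 4.56 on chow and, with Western diet, 4.19, 4.15, 4.48, 4.61 and 4.76. Knockout mice had 3.31, 2.99, 3.71, 3.44 and 3.85 on chow and, with Western diet, 1.18, 1.06, 1.07, 2.37 and 1.28. The knockout mice were thus below every wild-type mouse on either diet, and lower again on Western diet. C9 fell by 1.09 ± 0.23 (2.12-fold, adjusted p = 0.00249) between genotypes on normal diet and by 3.05 ± 0.23 (8.27-fold, adjusted p = 4.82e-09) on Western diet. It was the only 1 of the 7 members called on normal diet that stayed called under all 35 alternative settings run for it.

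C6, the component that joins the complex before C7 and C8, was measured on chromosome 15 at 4748363 to 4748422. C6 levels of chow-fed wild-type mice were 4.19, 3.87, 3.64, 4.26 and 4.15, with 3.76, 3.32, 3.64, 4.48 and 3.71 in wild-type mice on Western diet, and 4.13, 3.51, 4.08, 3.99 and 4.22 in knockout mice on normal diet. In knockout mice on Western diet they were 2.08, 0.71, 0.97, 2.15 and 1.12. The first 3 groups overlapped and the last lay below them. C6 fell by 2.38 ± 0.27 between genotypes on Western diet (adjusted p = 5.24e-07) and differed by -0.04 ± 0.27 on normal diet (adjusted p = 0.941).

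C8g, the gamma chain of C8, fell by 1.32 ± 0.15 on Western diet (adjusted p = 6.79e-07), from 5.99 ± 0.17 to 4.68 ± 0.38. C8a, the alpha chain, fell by 1.46 ± 0.23 (adjusted p = 0.00176), but 12 of its 20 values were missing because its spot had been marked as an outlier, and 3 mice remained in each of these groups and 1 in each group on normal diet. With the replicate number as a block the C8a difference was -1.27 (adjusted p = 0.113).

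**Figure D2:**
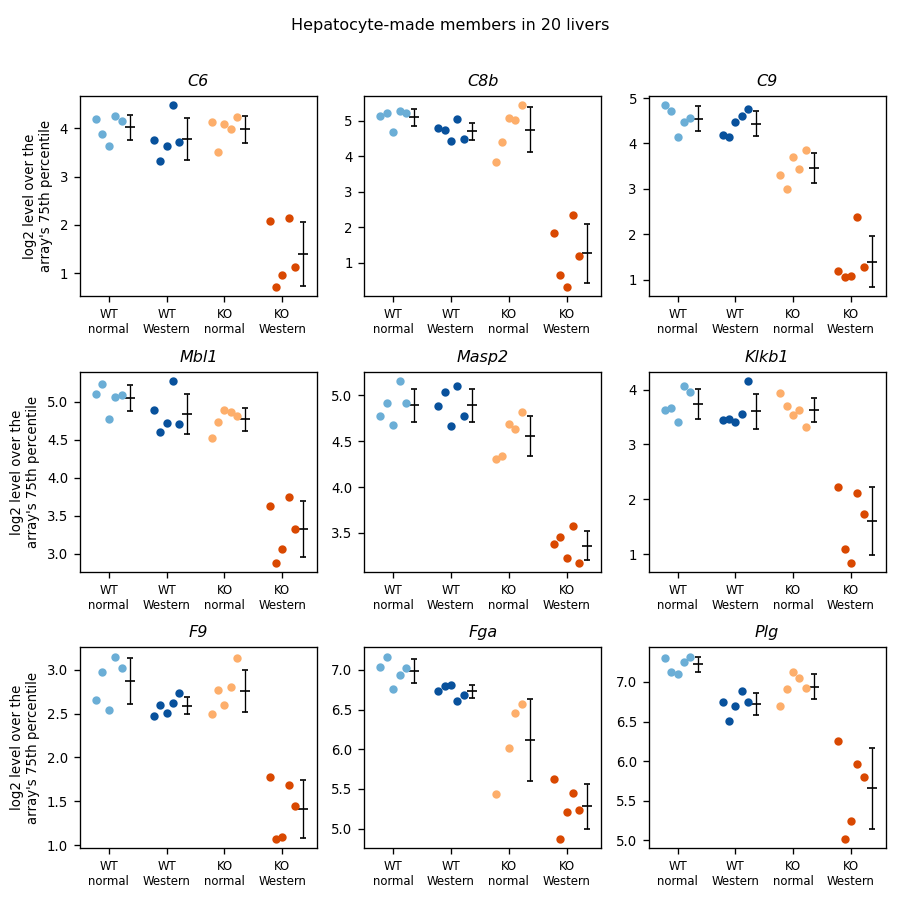
Level of 9 hepatocyte-made members in each of 20 livers (log2 signal over the 75th percentile of the array; bars, mean ± SD; n = 5 mice per group, 4 for Fga in knockout mice on normal diet). Knockout mice on Western diet lie below both wild-type groups in every panel. On normal diet knockout mice lie below all wild-type mice for C9 (3.46 ± 0.34 against 4.55 ± 0.27) and Fga. The 9 are a chosen part of the 30 hepatocyte-made members, of which 24 fell between genotypes on Western diet. Over all genes 32.7% were called lower there, and the share without overlap was not counted.

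The initiating proteins were split by source. The lectins and their proteases fell on Western diet and C1q, the initiator made by macrophages, rose. Mbl1 and Mbl2 encode mannose-binding lectins, and Masp1 and Masp2 the proteases they carry. Mbl1 was at 4.84 ± 0.26 in wild-type and 3.33 ± 0.37 in knockout mice on Western diet and fell by 1.51 ± 0.16 (adjusted p = 2.97e-07). Masp2 fell by 1.53 ± 0.13 (adjusted p = 1.40e-08), with values of 4.67 to 5.10 in wild-type and 3.17 to 3.58 in knockout mice, so that the groups did not overlap. Mbl2 levels in knockout mice on Western diet were 6.81, 5.33, 6.88 and 5.60 (mouse 3 had no value) against 7.48 to 8.04 in wild-type mice, a fall of 1.57 ± 0.26 (adjusted p = 8.18e-05). Its probe was saturated on 4 of 5 arrays of knockout mice on normal diet, where a true level would be higher than the measured one.

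Masp1 was measured by 4 probes that did not agree. The probe used fell by 0.65 ± 0.16 (adjusted p = 0.00174), 2 others gave -0.34 ± 0.13 (adjusted p = 0.0312) and -0.82 ± 0.26 (adjusted p = 0.00994), and the last rose by 0.59 ± 0.17 (adjusted p = 0.00634); which transcripts of the gene they read was not analysed here. With the mean of all probes the difference was -0.31 (adjusted p = 0.0501). C1s, a protease of the C1 complex, was measured by 2 probes that differed too. The probe used did not pass the threshold between genotypes on Western diet (-0.29 ± 0.15, adjusted p = 0.102). It fell with Western diet in knockout mice (-0.74 ± 0.15, adjusted p = 3.86e-04). The other C1s probe, above background on all 20 arrays, gave -0.89 ± 0.20 (adjusted p = 7.33e-04) between genotypes on Western diet.

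C1qa, C1qb and C1qc encode the 3 chains of C1q, and their probes lie side by side on chromosome 4, between 136152739 and 136168629. C1qb levels of wild-type mice were -0.13, 0.65, -0.41, -0.35 and -0.05 on chow and, with Western diet, 1.38, 1.08, 0.04, 0.68 and -0.18. Those of knockout mice were 1.94, 0.21, 1.00, 0.30 and 1.41 on chow and, with Western diet, 3.16, 3.05, 3.24, 2.49 and 2.96. The knockout mice on Western diet lay above all others, and the other 3 groups overlapped. C1qb rose by 2.38 ± 0.34 (5.2-fold, adjusted p = 8.64e-06), C1qc by 1.87 ± 0.39 (adjusted p = 4.91e-04) and C1qa by 1.61 ± 0.40 (adjusted p = 0.00213). On normal diet C1qb rose by 1.03 ± 0.34 (adjusted p = 0.038), which was lost when any of knockout mice 1, 3 and 5 or wild-type mice 1, 3, 4 and 5 was left out (0.79 to 1.22 over all mice left out in turn). C1qa and C1qc did not pass there (0.81 ± 0.40 and 0.70 ± 0.39).

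Among the activating components, C3 and the alternative pathway protease Cfb gave little that could be measured. C3, the central component, was saturated on all 20 arrays, and so were thrombin (F2) and the fibrinogen gamma chain (Fgg); no fold is given for them. A second, unsaturated C3 probe differed by -0.19 ± 0.28 on Western diet (adjusted p = 0.583). Cfb was saturated on 5 of 5 arrays of knockout mice and 4 of 5 arrays of wild-type mice on Western diet, so its fall there (-0.38 ± 0.11, adjusted p = 0.00742) was measured against a ceiling. C2, a classical pathway protease, differed by -0.10 ± 0.21 (adjusted p = 0.697), with 2 wild-type and 4 knockout values.

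Cfp encodes properdin, the stabiliser of the alternative pathway convertase. It was the single macrophage-made member of the 8 that did not rise between genotypes on Western diet (0.20 ± 0.31, adjusted p = 0.598). Its levels there were 2.70, 2.46, 1.36, 2.16 and 1.48 in wild-type and 2.41, 2.30, 2.44, 1.61 and 2.42 in knockout mice, and the groups overlapped fully. Within knockout mice Cfp rose with Western diet (1.19 ± 0.31, adjusted p = 0.00381), from values of 1.91, 0.28, 1.09, 0.45 and 1.48.

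Cfd encodes factor D, the protease that activates factor B and is best known as a product of fat cells. It was well above background on 1 of 5 arrays in each wild-type group, 5 of 5 in knockout mice on normal diet and 0 of 5 in knockout mice on Western diet, and passed the filter only through the knockout mice on normal diet. Levels were -6.71, -0.01, -6.15, -4.86 and -6.62 in wild-type and -3.24, -2.81, -1.94, -2.46 and -2.07 in knockout mice on normal diet. Wild-type mouse 2 stood far above its group, and the fat cell marker Adipoq was highest in the same mouse (-2.75, against -6.92 to -6.74 in the other 4), the only one of the 20 arrays on which it was well above background. Plin1, another fat cell marker, was also highest in that mouse (-4.07). It was well above background in wild-type mice 3 and 5 on normal diet too (-4.75 and -4.64), where Cfd was low. Lep was well above background in none of the mice, and 0 of the 3 markers in any knockout mouse on normal diet. The part of fat cells in the Cfd result was not tested. The genotype difference on normal diet was 2.37 with that mouse and 3.58 without it; no test is given for Cfd, since the group where it is high let it pass the filter. In knockout mice Cfd was at least 7.95-fold lower with Western diet, counting dim values at the lowest signal called well above background on each array.

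The complement regulators C4bp and Cfi differed little at the probes used. Cfi, which cleaves C3b and C4b, fell by 0.48 ± 0.11 on Western diet (adjusted p = 0.00125), and C4bp, its cofactor, did not pass (-0.15 ± 0.10, adjusted p = 0.223). Both lie near the top of the signal range, and under quantile normalization the C4bp difference was 0.29 (adjusted p = 0.0102), in the other direction. A dimmer C4bp probe was saturated on no array and above background on 10 of 20. It gave -1.12 ± 0.57 (adjusted p = 0.101) between genotypes on Western diet. With Western diet in knockout mice it gave -1.79 ± 0.57, against -0.38 ± 0.10 at the probe used.

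C3ar1 encodes the receptor for the C3a fragment. It was well above background on 1 of 5 and 2 of 5 wild-type arrays on normal and Western diet, on 3 of 5 knockout arrays on normal diet and on 5 of 5 on Western diet, where its levels were -1.27, -1.54, -1.27, -1.93 and -1.04. Its levels in wild-type mice on Western diet were -5.43, -5.73, -2.93, -4.91 and -4.05, and no knockout value overlapped them. The probe passed the filter only through the knockout mice on Western diet, so no test is given. The difference was 3.20, or 3.05 with dim values set to the array floor, and 0.45 with normexp background correction.

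Of the 8 clotting proteases and cofactors, 7 fell between genotypes on Western diet, against 32.7% of all genes. With Western diet in knockout mice 8 fell, against 27.8% of all genes. Both counts include F2, which was saturated on all 20 arrays. The falls were smaller than those of terminal complement, with a median of -0.59 between genotypes. F9, the haemophilia B protease, showed the largest: levels of 2.47, 2.60, 2.51, 2.62 and 2.73 in wild-type and 1.78, 1.07, 1.09, 1.68 and 1.44 in knockout mice on Western diet did not overlap, and F9 fell by 1.17 ± 0.16 (2.26-fold, adjusted p = 4.51e-06). A second F9 probe gave -1.23 ± 0.13.

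F12, which starts the contact pathway, fell by 0.74 ± 0.13 (adjusted p = 7.41e-05), and F10, where both arms of the cascade meet, fell by 0.60 ± 0.11 (adjusted p = 1.30e-04). F7, the partner of tissue factor, fell by 0.57 ± 0.16 (adjusted p = 0.00544). These 3 falls were lost with normexp background correction (adjusted p of 0.249 to 0.378). F8, the cofactor made mainly by endothelial cells, fell by 0.76 ± 0.23 (adjusted p = 0.00797). F5, the cofactor of factor Xa, did not pass between genotypes (-0.30 ± 0.13, adjusted p = 0.0587) and fell with Western diet in knockout mice (-0.83 ± 0.13, adjusted p = 4.02e-05). F3, tissue factor, the trigger of coagulation, did not pass in any of the 5 comparisons (-0.23 to 0.37).

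F11 and Klkb1 are neighbours and related proteases on chromosome 8, with probes at 46740216 to 46740275 and 46771146 to 46771205. F11 fell by 0.41 ± 0.16 on Western diet (adjusted p = 0.0395), a call lost when any of 8 of the 10 mice was left out. Klkb1, plasma prekallikrein of the contact system, had levels of 3.44, 3.46, 3.40, 3.55 and 4.16 in wild-type and 2.22, 1.09, 0.84, 2.12 and 1.73 in knockout mice. Those groups did not overlap, and Klkb1 fell by 2.01 ± 0.24 (4.02-fold, adjusted p = 1.00e-06). Kng1, the kininogen it cleaves, fell by 0.29 ± 0.11 (adjusted p = 0.0276) at a probe saturated on 3 of 20 arrays, and by 0.85 ± 0.21 (adjusted p = 0.00182) at a dimmer probe.

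Fga, the fibrinogen alpha chain (chromosome 3, 83117683 to 83117742), had levels of 7.04, 7.17, 6.76, 6.94 and 7.03 in chow-fed wild-type mice and, with Western diet, 6.73, 6.80, 6.81, 6.61 and 6.69. Knockout mice were at 5.43, 6.01, 6.46 and 6.57 on chow (mouse 2 had no value) and, with Western diet, at 5.62, 4.87, 5.21, 5.45 and 5.23. Every knockout value lay below every wild-type value. Fga fell by 0.87 ± 0.19 on normal diet (adjusted p = 0.00384), and with Western diet by 1.45 ± 0.18 (2.74-fold, adjusted p = 2.58e-06).

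Factor XIII, which cross-links fibrin, is built from an A chain made by macrophages and megakaryocytes and a B chain made by hepatocytes, and the genes of its chains moved in opposite directions. F13b, the B chain, was at 3.70 to 4.08 in wild-type and 2.51 to 3.29 in knockout mice on Western diet and fell by 1.11 ± 0.13 (2.15-fold, adjusted p = 1.18e-06). F13a1, the A chain, was at -2.82, -4.87, -5.50, -4.72 and -5.53 in wild-type mice on Western diet, where 1 of 5 arrays was well above background. In knockout mice F13a1 was at -2.02, -3.18, -3.51, -4.21 and -2.79 on chow and, with Western diet, at 0.94, 1.24, 2.16, 0.30 and 1.39. The last group stood above all others by more than 2 log2 units. F13a1 rose by 5.89 ± 0.48 on Western diet (adjusted p = 1.11e-08), by 5.78 with dim values set to the array floor, and by 2.37 (adjusted p = 2.29e-04) with normexp background correction.

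Fibrinolysis was split too. Plg, plasminogen, fell by 1.06 ± 0.18 on Western diet (adjusted p = 5.21e-05), with levels of 6.51 to 6.89 in wild-type and 5.02 to 6.26 in knockout mice. The 3 genes of its activation were higher: Plau (uPA), Plaur (the uPA receptor) and Plat (tPA).

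Plaur had levels of -3.81, -3.59, -3.31, -3.53 and -3.14 in chow-fed wild-type mice and, with Western diet, -2.99, -3.37, -2.80, -2.93 and -3.57. Knockout mice were at -1.27, -2.45, -1.68, -2.89 and -1.69 on chow and, with Western diet, at 2.12, 2.18, 2.65, 1.81 and 2.35. The knockout mice lay above the wild-type mice on each diet. Plaur rose by 1.48 ± 0.25 on normal diet (2.79-fold, adjusted p = 4.23e-04), and with Western diet by 5.35 ± 0.25 (40.9-fold, adjusted p = 1.76e-11). With normexp background correction these were 0.57 (adjusted p = 0.514) and 3.32 (adjusted p = 1.49e-07).

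Plau was well above background only in knockout mice on Western diet, on 5 of 5 arrays, and passed the filter through them. Its levels there were -1.92, -1.96, -1.94, -2.78 and -2.13, against -6.83, -5.86, -5.81, -7.09 and -5.68 in wild-type mice on Western diet. Plau was at least 8.12-fold higher, again with dim values at the floor of their array, and no test is given because of that choice. With normexp background correction the difference was 0.41, and a second Plau probe was above background on 1 of 20 arrays.

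Plat, made mostly by endothelial cells, was at -3.19, -2.17, -2.43, -3.20 and -2.64 in wild-type and 0.95, 1.65, 1.83, -0.29 and 2.25 in knockout mice on Western diet. All knockout values lay above all wild-type values, and mouse 4 was the lowest. Plat was 16.1-fold higher (adjusted p = 5.06e-08), by 2.14 to 5.46 log2 units within slides, and differed by 0.28 ± 0.37 on normal diet (adjusted p = 0.633). Of 6 endothelial markers 1 rose on Western diet (Lyve1, 2.08 ± 0.32), 1 fell (Kdr, -0.70 ± 0.23) and 4 did not pass, beside 25% of all genes higher and 32.7% lower. The part of endothelial cells in the Plat result was not tested.

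**Figure D3:**
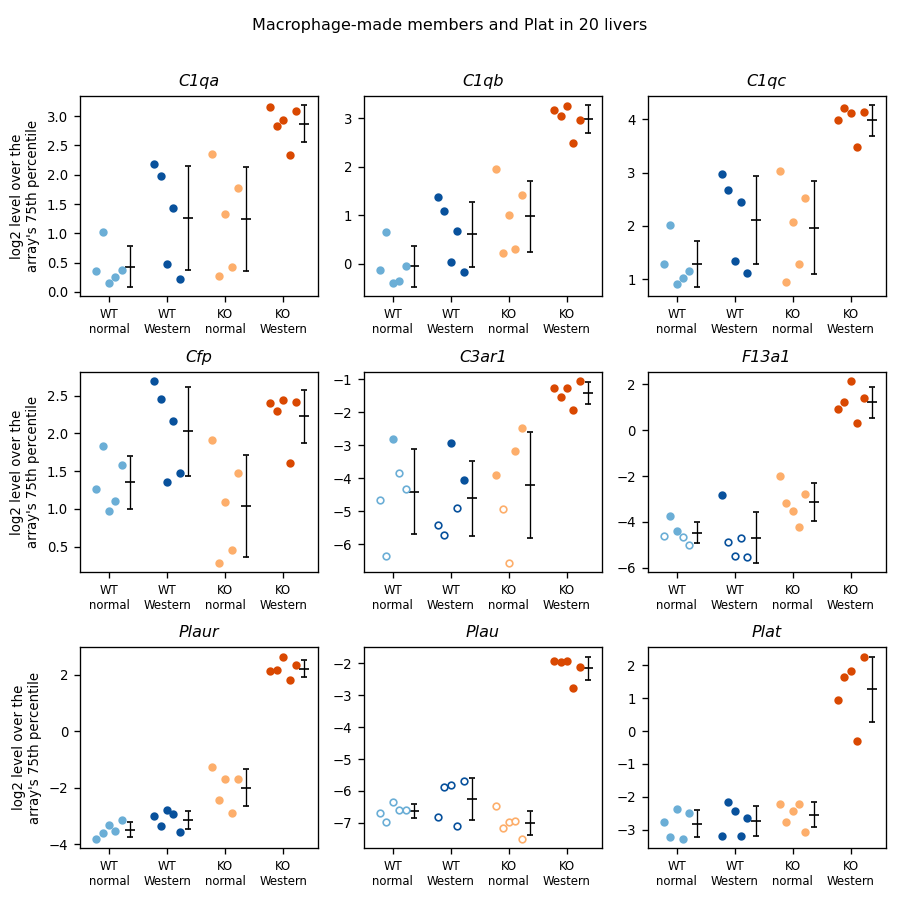
Level of the 8 measured macrophage-made members and of Plat in each of 20 livers (log2 signal over the 75th percentile of the array; open points were not well above background; bars, mean ± SD, n = 5 mice per group). On Western diet the genotypes overlap for Cfp and not for the other genes shown. Plau and C3ar1 passed the filter on dim probes only through knockout mice on Western diet, so their separation was set by that choice. Over all genes 25% were called higher in this comparison, and the share without overlap was not counted.

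The anticoagulants had no common direction. Thbd, the thrombin-binding cofactor on endothelium, had levels of -1.55, -1.76, -2.23, -1.62 and -1.94 in wild-type and 0.26, 1.01, 0.61, -0.54 and 0.60 in knockout mice on Western diet and rose by 2.21 ± 0.25 (4.63-fold, adjusted p = 6.16e-07). It rose by 0.83 ± 0.25 on normal diet (adjusted p = 0.0251), a call lost without knockout mouse 1 or 5 or wild-type mouse 1 or 5 (0.70 to 0.95 over all mice left out in turn). Proc, protein C, fell by 0.64 ± 0.11 on Western diet (adjusted p = 4.58e-05). Pros1, protein S, the cofactor of protein C that is also made outside hepatocytes, rose by 0.62 ± 0.15 on normal diet (adjusted p = 0.00674) and, with Western diet, by 0.48 ± 0.15 (adjusted p = 0.01), the opposite of the other hepatocyte-made members that changed. Tfpi, the inhibitor of tissue factor, did not pass at the probe used (0.40 ± 0.19 on Western diet, adjusted p = 0.0812), while another probe above background on 16 of 20 arrays rose by 1.18 ± 0.26 (adjusted p = 7.11e-04).

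F2r encodes the main thrombin receptor of vessel and stromal cells. It fell by 1.19 ± 0.19 on normal diet (adjusted p = 2.17e-04), with levels of 3.11, 3.40, 3.38 and 3.32 in wild-type mice (mouse 4 had no value) and 2.15, 2.41, 1.73, 1.88 and 2.41 in knockout mice. Those groups did not overlap. On Western diet F2r fell by 0.60 ± 0.18 (adjusted p = 0.00717), which was lost with quantile normalization (-0.42, adjusted p = 0.0528), in the series matrix (adjusted p = 0.0569) and with normexp (-0.36, adjusted p = 0.408).

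Differences between mice of a group were shared by many hepatocyte-made members. Among knockout mice on Western diet, 27 hepatocyte-made members had a value in all 5 mice; mouse 4 was the highest for 14 of them and mouse 1 for 9, and mouse 2 was the lowest for 12. Mouse 4 also had the lowest Plat, Plau, Plaur, F13a1 and C1qb of its group. In the wild-type groups mouse 4 was the highest for 18 of 28 members on normal diet and 17 of 28 on Western diet, and mouse 3 the lowest for 20 and 14. Mouse 4 of each wild-type group was on slide 6, and mouse 3 of each on slide 4, as was mouse 4 of each knockout group. The part of the slide in these shared differences was not tested. Wild-type mouse 4 on normal diet also had the lowest 75th percentile of the 20 arrays (170.3), and mouse 4 on Western diet the lowest of its group (261.1). These mice had the smallest shares of probes above background in their groups (53.6% and 56%). Mouse 3 had the largest (65% and 64%). In knockout mice on Western diet, mouse 4 had the largest share instead (67.1%). The ranks include saturated members and were not counted over all genes. The part of these array values was not tested.

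Marker genes of liver cell types moved with both classes. The median shift of the 30 hepatocyte-made members, relative to wild-type mice on normal diet, was -1.20 to -0.72 in knockout mice on Western diet and -0.37 to 0.19 in the other 15 mice. That of 8 hepatocyte markers was -1.21 to -0.68 and -0.46 to 0.06. Of these markers 6 of 8 fell between genotypes on Western diet, among them Ttr (-2.03 ± 0.18) and Hnf4a (-0.95 ± 0.17), both unsaturated, and Alb, which was saturated on all 20 arrays. The 8 macrophage-made members shifted by 2.51 to 3.21 in knockout mice on Western diet and by -0.24 to 1.85 in the others. Of these 8, Plau and C3ar1 passed the filter on dim probes only through knockout mice on Western diet, so that choice is part of the shift. The 10 macrophage markers shifted by 3.74 to 4.82 in knockout mice on Western diet and by -0.43 to 2.78 in the others. All 10 rose on Western diet, among them Gpnmb (11.46 ± 0.87, or 10.40 with dim values set to the array floor), Trem2 (7.19 ± 0.69) and Adgre1 (1.75 ± 0.38). Markers of resident Kupffer cells went the other way: 5 of 6 fell on Western diet, with Clec4f at 3.71 ± 0.81 in wild-type and -4.39 ± 1.70 in knockout mice and Cd5l differing by -8.56 ± 0.38. Cholangiocyte markers (4 of 4), neutrophil markers (4 of 5) and stellate cell markers (3 of 6) rose on Western diet, and of 4 platelet markers Pf4 rose (3.37 ± 0.31) and Itga2b fell. All these marker counts stand beside 25% of all genes higher and 32.7% lower in that comparison, and each list is short. The part of changed cell numbers in the member differences was not tested.

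**Figure D4:**
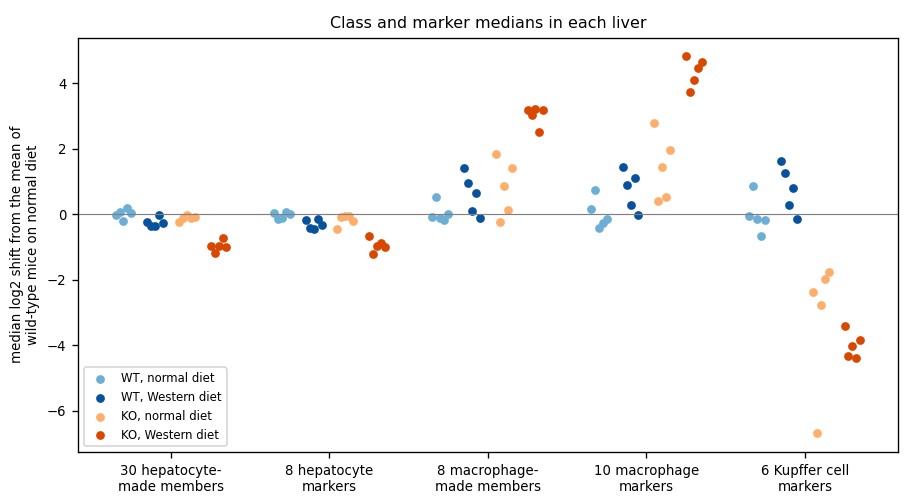
Median log2 shift of each gene set from the mean of wild-type mice on normal diet, 1 point per liver (5 per group). In knockout mice on Western diet the hepatocyte-made members lie at -1.20 to -0.72 beside hepatocyte markers at -1.21 to -0.68. Macrophage-made members lie at 2.51 to 3.21 beside macrophage markers at 3.74 to 4.82, while Kupffer cell markers lie at -4.39 to -3.43. Among the macrophage-made members, Plau and C3ar1 passed the filter on dim probes only through knockout mice on Western diet.

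Saturation set a further limit on the bright liver genes. Of the 30 hepatocyte-made members, 21 were saturated on no array, and of these 17 fell and 1 rose between genotypes on Western diet, with a median of -1.11 in place of -0.65. In knockout mice with Western diet 19 of the 21 fell, with a median of -1.20. Because the 75th percentile was higher in knockout mice on Western diet, a spot at the scanner's ceiling sat lower there on the scaled axis. The falls of C3, F2, Cfb, Kng1, Cfi and C4bp, all at or near that ceiling, reached 0 or changed sign in at least 1 comparison involving Western diet under quantile normalization or in the deposited series matrix. Of the 26 members that fell between genotypes on Western diet, 12 (C6, C8b, C8g, C9, F13b, F9, Fga, Klkb1, Masp2, Mbl1, Mbl2 and Plg) and of the 10 that rose, 7 (C1qa, C1qb, C1qc, F13a1, Plat, Plaur and Thbd) stayed called under every setting that gave them a value (33 to 35). Within slides that held both groups, 23 of the 26 falls and 10 of the 10 rises had the same sign on every slide; Cfb, F11 and F2r did not.

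Of 50 other genes of the same pathways, chosen by role from general knowledge but with earlier results of these data known, 42 were measured. In knockout mice on Western diet 9 of them rose and 26 fell (median -0.48). Over all genes 25% were higher and 32.7% lower there (median -0.16). On normal diet 5 rose and 4 fell, shares close to the 11.3% and 8.39% over all genes. The rises included the complement receptor integrins of myeloid cells, Itgax (7.58 ± 0.47, adjusted p = 4.50e-10), Itgb2 (4.25 ± 0.33, adjusted p = 5.80e-09) and Itgam (at least 24.4-fold). Itgam was well above background on no wild-type array on Western diet and passed the filter through other groups, so no test is given for it. Itgam and Itgax are also macrophage markers, and Vsig4, among the falls, is also a Kupffer cell marker. The falls included Serpina5, the protein C inhibitor (-4.90 ± 0.40, adjusted p = 1.25e-08), and Tfpi2, a Kunitz-type protease inhibitor (-2.92 ± 0.25, adjusted p = 1.81e-08). By role, 7 of 10 further complement components and 7 of 10 protease inhibitors fell on Western diet, against 32.7% of all genes. Among the components 1 (C7) was higher. It passed the filter on dim probes only through knockout mice on Western diet, so its place was set by that choice.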

How the data were processed

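Liver RNA was hybridised to 1-colour Agilent mouse arrays, 1 per mouse. Per the file headers, the deposited files hold scanner intensity values from Feature Extraction 9.5.3.1, background-subtracted by that program, with probe positions in mm8. The deposited series matrix holds log2 values of 24493 of the probes; how the authors normalized and filtered them is not given in the sources used here.

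Members and gene lists were chosen with earlier results of these data known. Spots marked as outliers were left out, log2 of the processed signal was centred on each array's 75th percentile, and spots of a probe were averaged. The probe with the highest mean level stood for its gene. Genes well above background on 4 of 5 arrays of at least 1 group were kept. Group means of all 20 arrays were fitted with limma 3.58.1 in R 4.3.3, with 5 contrasts and Benjamini-Hochberg adjustment over all genes. Every member is accounted for; of other pathway genes, up to 6 per comparison with the largest called difference could be named. A value called "at least" uses, for dim probes, the lowest signal well above background on that array. The pipeline was tested on simulated data. Alternatives covered scaling, background, filters, probes, slide and replicate blocks, and each mouse left out. The number of arrays limits the precision.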

Additional observations from a re-analysis of the deposited data

Results flagged for a closer look

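Each group of 4 or 5 mice was searched for 1 mouse standing apart from the rest by Dixon's criterion, which chance meets in about 1 in 20 groups; 19 of 179 member and group combinations met it. Mouse 4 of a group accounted for many of them. The number is a label within a group: wild-type mice 4 were on slide 6 and knockout mice 4 on slide 4. In knockout mice on Western diet, mouse 4 was high for C9 (2.37) and F13b (3.29) and low for Cfp (1.61) and Plau (-2.78). In wild-type mice on Western diet, mouse 4 was high for C8g (6.29), Cfi (7.61) and Proc (7.63), mouse 5 was high for Klkb1 (4.16) and mouse 3 was low for F11 (3.73). In wild-type mice on normal diet, mouse 4 was high for F2 (8.86), Fgg (8.71) and Proc (7.86), and mouse 3 was low for C8b (4.68) and Cfb (7.73). In the same group mouse 2 was high for C1qa (1.03) and Cfd (-0.01), and mouse 1 was low for Tfpi (-2.31). In knockout mice on normal diet, mouse 1 was low for F13b (3.97) and Kng1 (7.40).

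The diet difference depended on genotype for 21 members, by limma's test of the difference of differences (knockout minus wild-type). It was negative for C8b (-3.09, adjusted p = 1.10e-04), C6 (-2.34), C9 (-1.96), Klkb1 (-1.89), Mbl2 (-1.60), F13b (-1.24), Mbl1 (-1.23), Masp2 (-1.20), F9 (-1.07), C8g (-1.06), F8 (-1.04), Plg (-0.78), Proc (-0.63) and F10 (-0.61). It was positive for F13a1 (4.55), Plau (4.47), Plaur (3.87), Plat (3.72), C3ar1 (3.01), Thbd (1.38) and C1qb (1.35, adjusted p = 0.0416). Plau and C3ar1 passed the filter on dim probes only through knockout mice on Western diet, so their values describe a difference from the array floor and support nothing. C6, C8b, C9, F13a1, Klkb1, Plat and Plaur stayed called under every setting that gave them a value (33 or 34). The C1qb call was lost with 13 and the C3ar1 call with 8 of the 20 mice left out in turn, and the Plg call without knockout mouse 3 on Western diet (-0.68, adjusted p = 0.0543). The Plg call was also lost with slide as a fixed block (-0.71, adjusted p = 0.0506), median scaling, quantile normalization, normexp and in the series matrix.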

How the results depend on the processing

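Of the members called, 19 of 36 between genotypes on Western diet, 1 of 7 on normal diet, 20 of 40 for diet in knockout mice, 0 of 2 for diet in wild-type mice and 7 of 21 for the difference of differences stayed called under every alternative that gave them a value (33 to 35 per member). Normexp background correction called fewest: between genotypes on Western diet 13 members fell, on normal diet 0 rose and 1 fell, with diet in knockout mice 7 rose and 14 fell, and for the difference of differences 4 were positive and 5 negative. Quantile normalization gave 17 falls between genotypes on Western diet, and 19 with diet in knockout mice, as did the series matrix. With only probes above background on all 20 arrays, 4 differences of differences were positive. Scaling to the median left 1 rise on normal diet, and moved the median of all genes for diet in wild-type mice from -0.03 to 0.08 and the share of higher calls from 54.5% to 66.2%. Diet in wild-type mice gave 2 rises in the series matrix and 1 with quantile normalization. It gave 4 falls with the filter on all 20 arrays, an intensity trend, only the groups compared, or slide as a fixed or random block, 1 with all probes averaged or no filter, and 0 with median scaling or the other settings named here, also without saturated members or probes. Leaving out each mouse in turn gave 0 to 4 falls there (0 without wild-type mouse 2 or 4 on normal diet), and 2 to 6 rises and 3 to 5 falls between genotypes on normal diet.

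Signs changed for bright probes. With diet in knockout mice, the series matrix and quantile normalization gave 0.34 and 0.49 for C2, 0.00 and 0.05 for C3, 0.05 and 0.14 for C4bp, 0.03 and 0.11 for Cfi, 0.00 and 0.03 for F2 and for Fgg, and the matrix 0.27 for Cfb. Between genotypes on Western diet they gave 0.03 and 0.04 for Cfb and 0.15 and 0.18 for Kng1, and quantile normalization gave 0.05 for C3 and 0.29 for C4bp. On normal diet the matrix gave 0.28 for Proc. The cause was not tested. Deviations of same-numbered mice correlated at -0.378 to 0.269 between genotypes. Across diets they correlated at 0.027 to 0.487 in wild-type and -0.041 to 0.452 in knockout mice. Wild-type mice 2 to 5 and knockout mice 1 to 5 share a slide with their number across diets. Wild-type mouse 1, on different slides, gave the 0.027, and the wild-type pairs on a shared slide 0.168 to 0.487. Slide was left out of the main fit and used as a block only among the alternatives. Since not every pair passed 0.1, the numbers were not treated as pairs; with the replicate block 4 members fell with diet in wild-type mice and C8a lost its call on Western diet (-1.27, adjusted p = 0.113).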
